A study of Mus musculus with 32 samples.

Results

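The genes described here belong to the unfolded protein response and the integrated stress response, 2 linked programmes with which a cell answers misfolded protein in the endoplasmic reticulum (ER), shortage of amino acids and related strain. They were taken by symbol from the deposited table of raw counts: 35 symbols, all 35 of which were present among the 55401 genes of the table. Of these, 14 encode chaperones and folding enzymes of the ER lumen and membrane, and 4 act in ER-associated degradation. A further 8 are sensors, translation factors or transcription factors. The last 9 are grouped as targets of the transcription factor Atf4 (Atf4-type targets), a role given by the list. Whether Atf4 induces each of the 9, Ppp1r15b among them, was not tested. The rows were picked by symbol, and the list of symbols was drawn up with earlier results of these data known.

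As background, the unfolded protein response starts from 3 membrane sensors of the ER, the nuclease Ern1 (Ire1), the kinase Eif2ak3 (Perk) and the tethered transcription factor Atf6. Ern1 splices Xbp1 mRNA, and the Xbp1 and Atf6 proteins raise the transcription of chaperone and degradation genes through promoter elements named ERSE and ERSE-II. Eif2ak3 and the amino acid sensor Eif2ak4 (Gcn2) phosphorylate the translation factor Eif2s1, which favours translation of Atf4 mRNA. Atf4 then raises amino acid synthesis, transport and stress genes through C/EBP-ATF response elements (CARE). In neurons these programmes bear on protein synthesis at synapses. Splicing, phosphorylation and translation are not measured by counts per gene, so the values below are amounts of RNA.

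The animals were 32 mice of 6 weeks and both sexes, whose cerebral cortex gave the RNA. There were 12 euploid +/+ animals, 10 Ts65Dn;Df(17)2 animals and 10 Dp(16)1/Df(16)8 animals. In Ts65Dn the additional genes sit on a small chromosome of its own, made of distal chromosome 16, which is orthologous to much of human chromosome 21, and proximal chromosome 17. In Dp(16)1 they are a duplication within chromosome 16. The labels add the deletions Df(17)2 and Df(16)8, each bred to 1 of the lines to lower the dose of a segment that the other line does not triplicate, so that nearly the same genes can be compared with and without an additional chromosome. All alleles are germline alleles and are therefore present in every cell type. The labels name no litter or breeding group, and the samples are whole tissue, in which fewer cells of a type and less RNA per cell cannot be told apart.

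Library totals ran from 5795479 to 11189548 counts. All 14 listed markers of excitatory cortical neurons were measured, with a mean level of 5.97 to 7.34 log2 CPM (counts scaled to library size) per animal. Markers of striatal neurons were also present and varied: the mean level of the 15 listed genes ran from 2.62 to 6.90 log2 CPM in +/+ animals, from 4.72 to 6.75 in Ts65Dn;Df(17)2 and from 2.89 to 6.92 in Dp(16)1/Df(16)8. None of the 15 was at 0 in every library, and 2 were at 0 in at least 1. The library of Dp(16)1/Df(16)8 replicate 2, labelled female, had 14 counts of Xist and 696 of Ddx3y, where the lowest Xist count of the other females was 9990. The titles also give animal numbers. These fall into runs of neighbouring numbers, which the labels do not call batches; the run from 32128 to 32144 holds 3 +/+ and 3 Dp(16)1/Df(16)8 animals and no Ts65Dn;Df(17)2 animal, and it stood apart in ER genes, as given below.

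None of the 35 genes lies in the engineered segments of chromosomes 16 and 17. Hspa5 (ENSMUSG00000026864.13) is at chr2:34771970-34777547, Calr (ENSMUSG00000003814.8) at chr8:84841850-84846934, Syvn1 (ENSMUSG00000024807.18) at chr19:6046576-6053712 and Asns (ENSMUSG00000029752.12) at chr6:7675169-7693254, in GRCm38. They are spread over 15 chromosomes. Sdf2l1 (chromosome 16, 17130138 to 17132383) and Dnajb11 (chromosome 16, 22857845 to 22879634; coordinates of GRCm38) are on chromosome 16, proximal to the segment with additional copies. The strand setting of the counting is not given in the sources used here, and 13 of the 35 genes overlap a gene on the other strand, among them Syvn1 with Mrpl49, Ddit3 with Mars and Manf with Dcaf1, so reads of those pairs cannot be told apart. Calr and Phgdh each have a pseudogene in the table, and their counts are uncertain to that extent.

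The promoters show how the groups differ in sequence. Windows from 250 bases before to 50 bases after the RefSeq start (GRCm38.p6) were found for 31 of the 35 genes, Hyou1, Manf, Atf6 and Ppp1r15b being the others. The ERSE, searched on both strands as CCAAT and CCACG with 9 bases of any kind between them, was in the windows of 8 of the 31 genes, against 39 of 32851 windows (0.119%) of all genes. The 32851 windows include those of these genes and are counted as windows, not as genes. The 8 were Hspa5, Hsp90b1 (2 sites), Calr, Canx, Pdia6, Dnajc3, Creld2 and Syvn1. It was thus held by 7 of 12 chaperone genes with a window and by 0 of 8 such Atf4-type targets. The ERSE-II, searched as ATTGG and CCACG with 1 base of any kind between them, was in the windows of Dnajb11 and Herpud1 and in 0.0365% of all windows. The core of the CARE, searched as TGATGNAA, was in the windows of Herpud1, Trib3, Asns and Chac1 and in 3.97% of all windows. A match describes letters in the window and does not show binding. The 250 bases before the start are printed for 8 genes, 5′ to 3′ on the strand of the gene, with the fixed letters of each match in capitals. Hspa5, Calr and Dnajc3 are shown because they varied together between animals, Canx because it holds the same element and its relation to Hspa5 differed between sets of animals, Syvn1 because it was the only one of the 35 genes to pass the test of genotype, Herpud1 because it holds both an ERSE-II and a CARE core, and Asns and Chac1 for the CARE core alone.
Hspa5 (ERSE, chr2:34771840-34772089, + strand): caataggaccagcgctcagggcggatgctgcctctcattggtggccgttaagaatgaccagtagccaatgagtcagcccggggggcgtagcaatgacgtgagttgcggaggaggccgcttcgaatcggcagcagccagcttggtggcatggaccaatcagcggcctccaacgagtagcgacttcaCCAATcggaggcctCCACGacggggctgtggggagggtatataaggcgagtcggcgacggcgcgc
Calr (ERSE on the other strand, chr8:84846932-84847181, - strand): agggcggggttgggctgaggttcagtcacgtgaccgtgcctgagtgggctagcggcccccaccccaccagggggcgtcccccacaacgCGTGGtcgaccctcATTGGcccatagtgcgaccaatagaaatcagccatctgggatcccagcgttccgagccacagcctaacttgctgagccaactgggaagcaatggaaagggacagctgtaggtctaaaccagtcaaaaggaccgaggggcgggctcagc
Dnajc3 (ERSE, chr14:118937682-118937931, + strand): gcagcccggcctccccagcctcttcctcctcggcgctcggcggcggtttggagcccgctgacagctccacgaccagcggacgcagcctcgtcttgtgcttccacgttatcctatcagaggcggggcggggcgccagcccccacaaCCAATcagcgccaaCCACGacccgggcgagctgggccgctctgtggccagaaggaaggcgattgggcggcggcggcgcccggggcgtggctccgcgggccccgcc
Canx (ERSE, chr11:50325674-50325923, - strand): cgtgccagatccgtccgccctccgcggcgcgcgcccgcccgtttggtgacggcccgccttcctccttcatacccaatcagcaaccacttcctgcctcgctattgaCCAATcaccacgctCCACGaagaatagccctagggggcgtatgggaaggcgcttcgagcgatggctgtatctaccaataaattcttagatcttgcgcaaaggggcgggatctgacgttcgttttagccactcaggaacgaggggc
Syvn1 (ERSE, chr19:6046326-6046575, + strand): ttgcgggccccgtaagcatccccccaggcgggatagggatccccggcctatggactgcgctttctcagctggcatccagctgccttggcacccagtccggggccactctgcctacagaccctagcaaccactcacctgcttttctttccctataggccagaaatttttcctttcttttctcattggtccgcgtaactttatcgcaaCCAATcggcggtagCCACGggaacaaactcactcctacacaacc
Herpud1 (CARE core on the other strand, then ERSE-II, chr8:94386179-94386428, + strand): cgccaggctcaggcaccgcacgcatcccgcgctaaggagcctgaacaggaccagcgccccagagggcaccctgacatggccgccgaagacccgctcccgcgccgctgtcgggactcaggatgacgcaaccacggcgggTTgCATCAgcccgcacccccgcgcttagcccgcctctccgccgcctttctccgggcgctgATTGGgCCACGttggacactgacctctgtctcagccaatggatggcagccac
Asns (CARE core, chr6:7693210-7693459, - strand): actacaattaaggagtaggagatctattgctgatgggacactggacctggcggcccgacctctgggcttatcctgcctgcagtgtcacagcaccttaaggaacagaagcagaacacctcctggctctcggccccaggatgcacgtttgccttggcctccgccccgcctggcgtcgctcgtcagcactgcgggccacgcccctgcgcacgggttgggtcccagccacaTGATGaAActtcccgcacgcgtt
Chac1 (CARE core on the other strand, chr2:119350992-119351241, + strand): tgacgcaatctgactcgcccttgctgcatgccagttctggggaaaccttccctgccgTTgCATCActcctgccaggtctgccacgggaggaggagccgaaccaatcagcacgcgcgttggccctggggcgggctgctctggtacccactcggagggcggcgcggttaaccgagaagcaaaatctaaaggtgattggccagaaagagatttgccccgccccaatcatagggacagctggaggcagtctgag

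**Figure D1:**
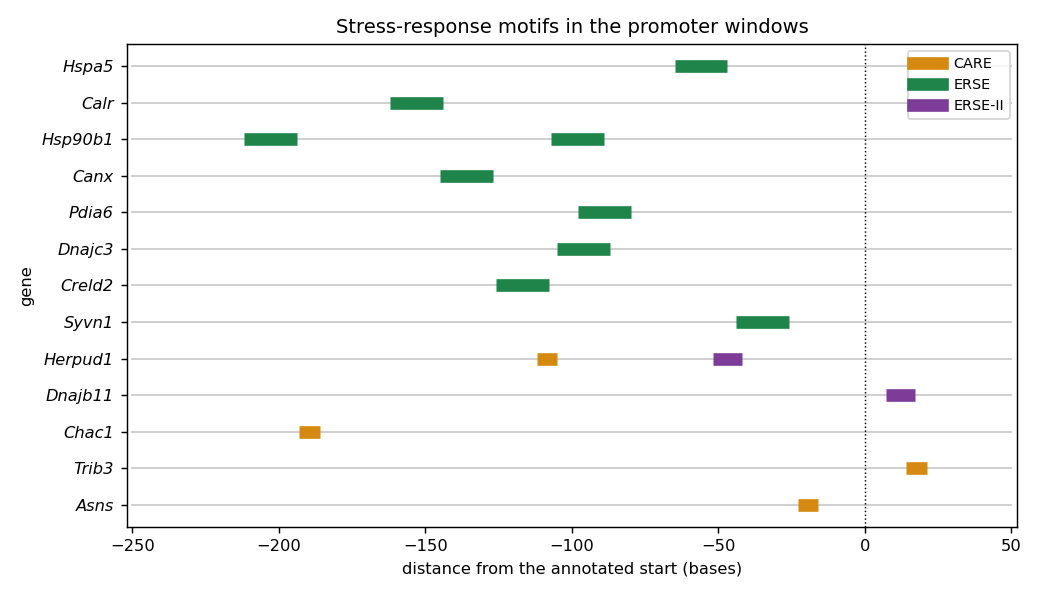
Positions of ERSE (green), ERSE-II (purple) and CARE core (orange) matches in the promoter windows of the 13 genes that hold any of them, as the distance in bases from the annotated start (dotted line). The ERSE matches all lie before the start, from base -212 to base -26, and the CARE core of Asns lies at -23 to -16.

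Per length of exons, the calcium-dependent lectin chaperones Calr and Canx were the most abundant of the 35 genes in +/+ cortex, at 96.7 and 94.3 CPM per kb. The chaperones Hsp90b1 (Grp94) and Hspa5 (BiP), the master chaperone that also holds the sensors inactive, followed at 76.7 and 54.6 CPM per kb. Atf4 stood at 27.4 and Asns, asparagine synthetase, at 25.1 CPM per kb, whereas the sensors Ern1 and Eif2ak3 stood at 2.52 and 5.14 CPM per kb. Trib3, a pseudokinase that feeds back on Atf4, was the least abundant at 0.204 CPM per kb, with 0 to 12 counts per library. It was too low to be tested, which leaves 34 genes, and its level ran from 0 to 1.51 CPM in +/+ animals, from 0.288 to 1.72 in Ts65Dn;Df(17)2 and from 0 to 1.45 in Dp(16)1/Df(16)8, ranges that overlap throughout.

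The ER chaperones were lower on balance in Ts65Dn;Df(17)2 than in +/+ cortex, with none past the adjusted threshold. Hspa5 ran from 173 to 335 CPM in the 12 +/+ animals (median 218) and from 160 to 241 CPM in the 10 Ts65Dn;Df(17)2 animals (median 196). The groups overlapped over most of their range, and the 3 highest of these 22 animals were +/+. The log2 fold change was -0.23 ± 0.10 (SE), with an adjusted p of 0.19 (edgeR quasi-likelihood test, Benjamini-Hochberg adjustment over 16042 genes, here and below). Sdf2l1, a partner of ER chaperones in holding clients soluble, had the lowest fold change of the group. It ran from 3.41 to 15.1 CPM in +/+ (median 6.75) and from 3.21 to 6.77 CPM in Ts65Dn;Df(17)2 (median 5.22), a log2 fold change of -0.60 ± 0.20 with an adjusted p of 0.080. All 10 Ts65Dn;Df(17)2 animals were below the +/+ mean, which +/+ replicates 4 and 5 (15.1 and 13.7 CPM) raise. Calr, whose protein folds glycoproteins and buffers calcium, ran from 233 to 319 CPM in +/+ (median 276) and from 225 to 275 CPM in Ts65Dn;Df(17)2 (median 253), with a log2 fold change of -0.14 ± 0.04 and an adjusted p of 0.058. Again all 10 animals were below the +/+ mean, within ranges that overlap. Dnajb11, a co-chaperone of Hspa5, stood at -0.22 ± 0.07 (adjusted p 0.080).

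The other chaperones also had overlapping ranges in all genotypes. Manf, a secreted folding factor, ran from 23.3 to 50.4 CPM in +/+ (median 33.4), from 25.4 to 33.7 CPM in Ts65Dn;Df(17)2 (median 30.4) and from 27.99 to 38.1 CPM in Dp(16)1/Df(16)8 (median 31.2). Creld2, a stress-induced isomerase-like protein, ran from 5.46 to 15.04 CPM in +/+ (median 7.63), from 6.28 to 9.36 CPM in Ts65Dn;Df(17)2 (median 7.12) and from 6.26 to 11.3 CPM in Dp(16)1/Df(16)8 (median 7.21). For both genes the +/+ animals reached highest. Pdia4, a disulfide isomerase, ran from 31.8 to 59.6 CPM in +/+ (median 46.00), from 34.8 to 46.7 CPM in Ts65Dn;Df(17)2 (median 38.7) and from 34.7 to 50.02 CPM in Dp(16)1/Df(16)8 (median 43.4). Hsp90b1 ran from 255 to 353 CPM in +/+ (median 303), from 254 to 336 CPM in Ts65Dn;Df(17)2 (median 294) and from 274 to 329 CPM in Dp(16)1/Df(16)8 (median 304), and its log2 fold change in Ts65Dn;Df(17)2 was -0.07 ± 0.05. Hyou1 ran from 136 to 165 CPM in +/+ (median 145), from 130 to 162 CPM in Ts65Dn;Df(17)2 (median 143) and from 133 to 159 CPM in Dp(16)1/Df(16)8 (median 146), so the 3 genotypes nearly coincided.

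Over the 14 chaperone genes, the median log2 fold change in Ts65Dn;Df(17)2 against +/+ was -0.18, and 12 of 14 values were negative. Without the 6 animals numbered 32128 to 32144, of which 3 were +/+ and none Ts65Dn;Df(17)2, the median was -0.04. Over all genes tested the median was 0.00 and 48.6% were negative. At an unadjusted p under 0.05 there were 8 of the 14, 7 lower and 1 higher (Canx, 0.07 ± 0.03, adjusted p 0.15), against 21.8% of all genes. Other members with negative values were the disulfide isomerases Pdia4 (-0.18 ± 0.08) and Pdia6 (-0.19 ± 0.07), the secreted factor Manf (-0.18 ± 0.10), Creld2 (-0.22 ± 0.15) and the co-chaperone Dnajc3 (-0.20 ± 0.08). Hyou1, an exchange factor of Hspa5, was at -0.03 ± 0.04 and Dnajb9, which is among the classical Xbp1 targets, at 0.01 ± 0.04. The group was therefore not uniform, and Canx, Dnajb9 and Hyou1 stood near 0 or above it. Striatal marker genes were on average higher and immediate early genes lower in Ts65Dn;Df(17)2 than in +/+ (6.11 against 4.87 and 5.34 against 5.68 log2 CPM). Markers of excitatory cortical neurons were also lower (6.49 against 6.92 log2 CPM), and those of meningeal cells and fibroblasts higher (4.04 against 3.67 log2 CPM). The chaperone median was -0.06 with the striatal level as a term and -0.12 with the immediate early level as a term. The part of cell composition in the chaperone values was not tested.

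Only Syvn1 passed the test among the 34 genes. It encodes Hrd1, the ubiquitin ligase through which misfolded ER proteins leave for the proteasome. It ran from 36.5 to 50.3 CPM in +/+ (median 41.7), from 32.5 to 44.1 CPM in Ts65Dn;Df(17)2 (median 36.5) and from 33.7 to 44.3 CPM in Dp(16)1/Df(16)8 (median 38.1). In both aneuploid genotypes 9 of 10 animals were below the +/+ mean, and the ranges overlapped. Syvn1 fell in Ts65Dn;Df(17)2 with a log2 fold change of -0.21 ± 0.06 (adjusted p 0.037), 1 of 34 genes where 3.97% of all tested genes passed in either direction, 1.75% up and 2.22% down. The call was lost in 12 of the 32 fits that each left out 1 library (adjusted p 0.014 to 0.076 over the 32 fits), namely those without +/+ replicates 4, 5, 9, 10 or 12 or Ts65Dn;Df(17)2 replicates 2, 3, 4, 6, 7, 8 or 9. It was also lost with striatal marker level as a term (-0.14, adjusted p 0.27) or immediate early gene level as a term (-0.18, adjusted p 0.13). Of the other degradation genes, Herpud1, a partner of Syvn1 in the same membrane complex, was at -0.22 ± 0.10, Sel1l, its scaffold, at -0.12 ± 0.05, and the mannosidase-like Edem1 at 0.01 ± 0.05. Herpud1 ran from 24.7 to 47.4 CPM in +/+ (median 31.9), from 22.9995 to 34.1 CPM in Ts65Dn;Df(17)2 (median 29.2) and from 22.8 to 40.9 CPM in Dp(16)1/Df(16)8 (median 34.5), and its +/+ range again reached highest.

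No sensor or transcription factor passed in Ts65Dn;Df(17)2 against +/+. Xbp1 ran from 48.9 to 86.7 CPM in +/+ (median 59.5) and from 51.1 to 60.8 CPM in Ts65Dn;Df(17)2 (median 56.5), so that the +/+ animals reached both lower and much higher. Its log2 fold change was -0.16 ± 0.09 (adjusted p 0.31). Atf6 was at -0.25 ± 0.11 and Eif2ak3 at -0.17 ± 0.07, while Ern1 (-0.03 ± 0.07), Eif2ak4 (0.00 ± 0.05) and Eif2s1 (0.05 ± 0.06) were near 0. Atf4 ran from 52.9 to 89.4 CPM in +/+ and from 48.7 to 78.9 CPM in Ts65Dn;Df(17)2, at -0.08 ± 0.09 (adjusted p 0.67). Ddit3 (Chop), the factor tied to cell death under prolonged stress, was low in all genotypes, at 5.75 to 11.3 CPM in +/+ and 5.53 to 9.10 CPM in Ts65Dn;Df(17)2, with a log2 fold change of -0.13 ± 0.11. Eif2ak3 ran from 25.4 to 37.3 CPM in +/+ (median 30.2), from 25.1 to 32.3 CPM in Ts65Dn;Df(17)2 (median 26.6) and from 26.1 to 35.1 CPM in Dp(16)1/Df(16)8 (median 28.8), the Ts65Dn;Df(17)2 median being the lowest of the 3 within ranges that overlap.

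None of the 8 tested Atf4-type targets passed in Ts65Dn;Df(17)2 against +/+, where 3.97% of all tested genes did. None had an unadjusted p under 0.05, against 21.8% of all tested genes. With only 8 genes, these counts of 0 do not set the group apart from those shares. Their median log2 fold change was -0.09, with 7 of 8 negative. Asns ran from 59.0 to 80.04 CPM in +/+ (median 67.7) and from 58.2 to 81.1 CPM in Ts65Dn;Df(17)2 (median 68.6), ranges that nearly coincide, with a log2 fold change of 0.04 ± 0.06. Sesn2, which restrains mTORC1 when leucine is short, was at -0.22 ± 0.11, and Chac1, a glutathione-degrading enzyme, at -0.23 ± 0.19 on 17 to 52 counts per +/+ library. Ddit4 (Redd1), another brake on mTORC1, was at -0.12 ± 0.15. The serine synthesis genes Phgdh (-0.06 ± 0.07) and Psat1 (-0.04 ± 0.09) and the Eif2s1 phosphatase subunits Ppp1r15a (-0.12 ± 0.10) and Ppp1r15b (-0.03 ± 0.05) made up the rest. Chac1 ran from 2.69 to 7.92 CPM in +/+ (median 4.03), from 2.72 to 5.18 CPM in Ts65Dn;Df(17)2 (median 3.72) and from 1.68 to 5.86 CPM in Dp(16)1/Df(16)8 (median 3.59). Ddit4 ran from 17.4 to 34.8 CPM in +/+ (median 24.6), from 14.8 to 35.4 CPM in Ts65Dn;Df(17)2 (median 21.7) and from 13.7 to 29.5 CPM in Dp(16)1/Df(16)8 (median 19.8). Both had wide ranges in every genotype, with no separation. Psat1 ran from 55.8 to 91.4 CPM in +/+ (median 71.8), from 56.8 to 84.8 CPM in Ts65Dn;Df(17)2 (median 67.3) and from 56.1 to 84.7 CPM in Dp(16)1/Df(16)8 (median 76.1). Phgdh ran from 23.2 to 30.6 CPM in +/+ (median 25.8), from 21.3 to 32.2 CPM in Ts65Dn;Df(17)2 (median 25.1) and from 22.2 to 29.8 CPM in Dp(16)1/Df(16)8 (median 24.6). The serine synthesis genes thus overlapped over nearly their whole ranges.

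**Figure D2:**
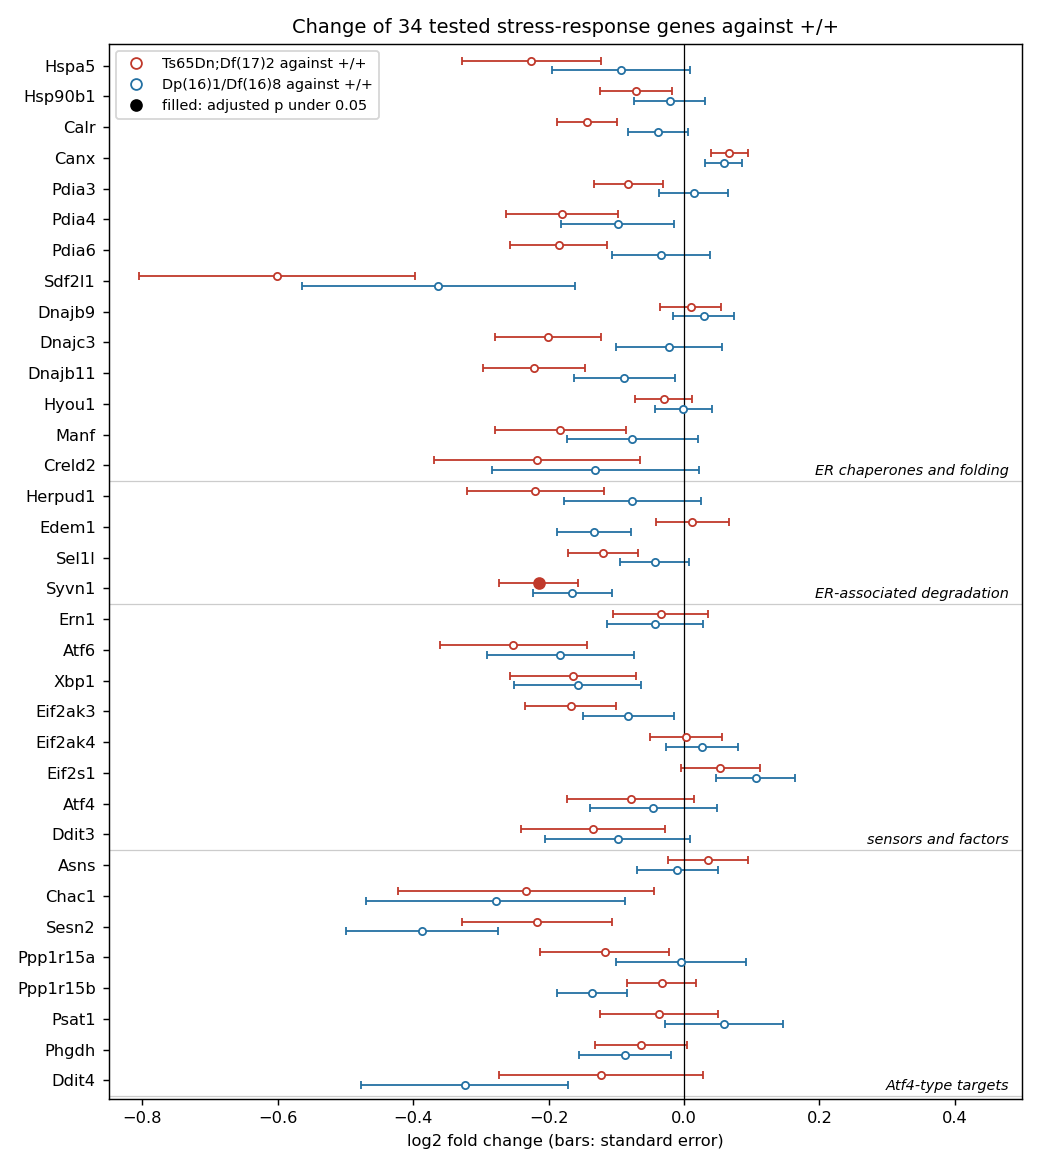
Log2 fold change against +/+ of the 34 tested genes, by role, for Ts65Dn;Df(17)2 (red) and Dp(16)1/Df(16)8 (blue), both of which share the +/+ controls. Bars are standard errors and the filled point, Syvn1 in Ts65Dn;Df(17)2, marks the only adjusted p under 0.05.

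In Dp(16)1/Df(16)8 against +/+, 0 of the 34 genes passed by edgeR and 0 by DESeq2, where 0.573% of all tested genes passed by edgeR (0.418% up, 0.156% down). At an unadjusted p under 0.05 there were 6, where 12.8% of all tested genes had one. The chaperone median was -0.04, with 1 of 14 at an unadjusted p under 0.05. Hspa5 ran from 188 to 273 CPM (median 199) and was at -0.09 ± 0.10, Calr from 261 to 279 CPM (median 273) at -0.04 ± 0.04, and Sdf2l1 from 4.01 to 10.2 CPM (median 5.53) at -0.36 ± 0.20. The Calr values lay in a narrow band inside the +/+ range. The Atf4-type targets had a median of -0.11. Sesn2 ran from 6.74 to 12.4 CPM in +/+ (median 9.32) and from 5.76 to 9.03 CPM in Dp(16)1/Df(16)8 (median 6.90). All 10 Dp(16)1/Df(16)8 animals were below the +/+ mean of 9.28 CPM, the log2 fold change was -0.39 ± 0.11, and the adjusted p was 0.13. Of the 32 fits that each left out 1 library, 31 had none of the 34 genes past the threshold. In the other, without Dp(16)1/Df(16)8 replicate 1, Sesn2 passed. That animal had the highest Sesn2 of its genotype, at 9.03 CPM, so leaving it out lowers the group. Syvn1 stood at -0.17 ± 0.06 (adjusted p 0.24), Ddit4 at -0.32 ± 0.15, Chac1 at -0.28 ± 0.19, Ppp1r15b at -0.14 ± 0.05 and Edem1 at -0.13 ± 0.05. Of the factors, Xbp1 ran from 47.9 to 78.8 CPM in Dp(16)1/Df(16)8 (median 51.04), with a log2 fold change of -0.16 ± 0.09. Atf4 ran from 51.9 to 96.9 CPM in Dp(16)1/Df(16)8 (median 59.03) and Ddit3 from 5.76 to 9.47 CPM in Dp(16)1/Df(16)8 (median 7.48), at -0.05 ± 0.09 and -0.10 ± 0.11. Asns ran from 61.2 to 77.1 CPM in Dp(16)1/Df(16)8 (median 65.99), at -0.01 ± 0.06. Each of these ranges overlapped that of +/+.

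The direct comparison of the aneuploid genotypes asks whether the chromosomal form matters beyond the shared genes. Of the 34 genes, 0 passed by edgeR and 0 by DESeq2, where 0.0499% of all tested genes passed by edgeR (0.0436% up, 0.00623% down). At an unadjusted p under 0.05 there were 3, against 4.1% of all tested genes. They were Edem1 (0.15 ± 0.06, higher in Ts65Dn;Df(17)2), Calr (-0.11 ± 0.05) and Dnajc3 (-0.18 ± 0.08). Hspa5 was at -0.13 ± 0.11 and the chaperone median at -0.10. The animals numbered 32128 to 32144, in which several chaperone genes were highest, include 3 of the other aneuploid genotype and no Ts65Dn;Df(17)2 animal. The chaperone values given here are therefore not separated from a difference between runs of animal numbers. The difference of Syvn1 was -0.05 ± 0.06, which does not tell the genotypes apart. With both aneuploid genotypes averaged against +/+, Syvn1 fell by 0.19 on the log2 scale (SE 0.05, adjusted p 0.028), 1 of 34 where 4.23% of all tested genes passed (1.78% up, 2.44% down). The call was lost in 6 of 10 other fits: with no filter on low counts (adjusted p 0.060), with the striatal (0.17) or immediate early level (0.14) as a term, with run terms (0.058), without 32128 to 32144 (0.19) and within 32333 to 32373, where Syvn1 was at -0.11 (adjusted p 0.46). It was also lost without +/+ replicate 4, 5 or 10. At an unadjusted p under 0.05 there were 8 of the 34, against 22% of all tested genes. Sesn2 was at -0.30 ± 0.09 (adjusted p 0.060), and it passed by DESeq2 (adjusted p 0.040).

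**Figure D3:**
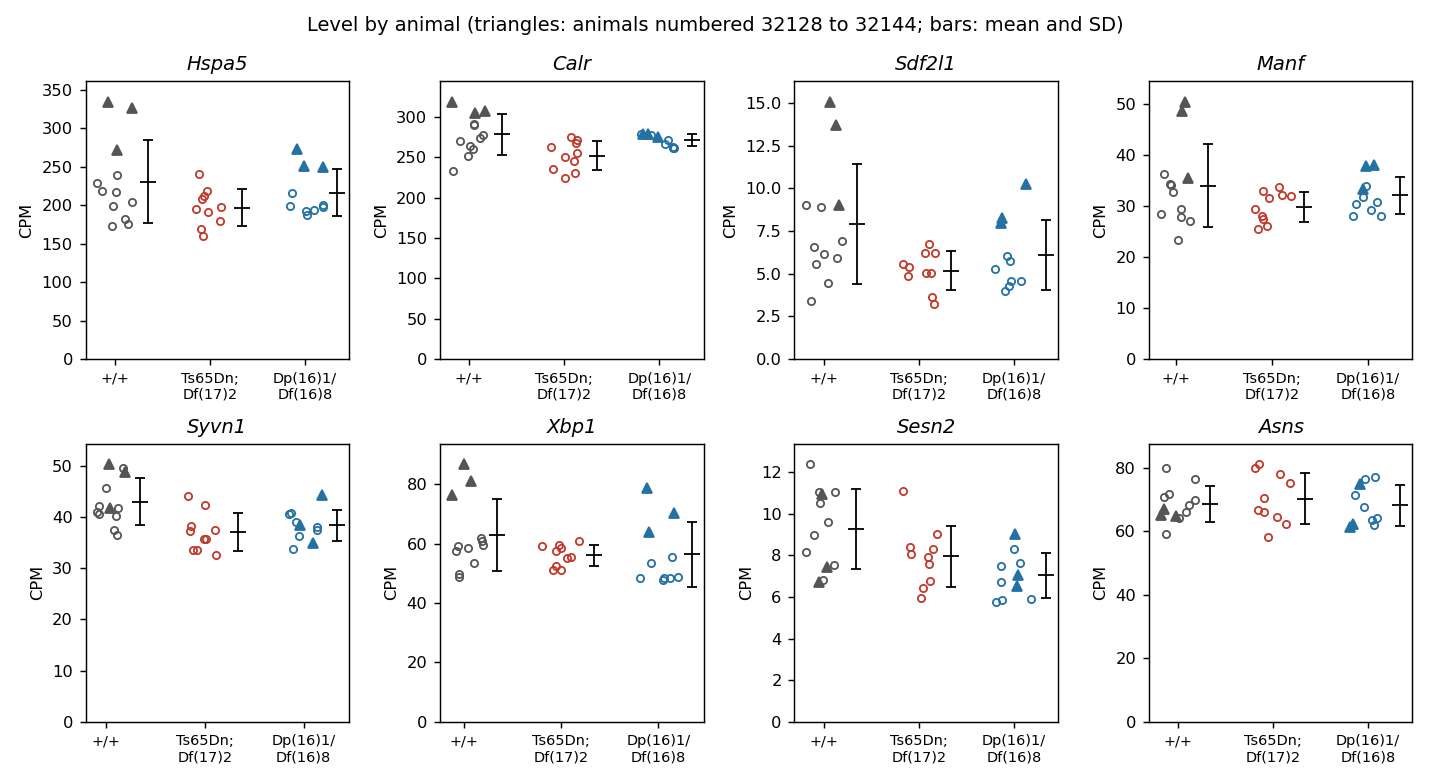
CPM of 8 genes in each animal by genotype, with the mean and SD beside the points. Filled triangles are the 6 animals numbered 32128 to 32144, whose Hspa5 and Xbp1 levels lie above those of all 26 other animals, while their Asns and Sesn2 levels lie among the others.

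Several chaperone genes were highest in the animals numbered 32128 to 32144, none of which was Ts65Dn;Df(17)2. Hspa5 ran from 250 to 335 CPM in these 6 animals and from 160 to 241 CPM in the other 26, without overlap. Xbp1 also did not overlap, at 63.8 to 86.7 CPM against 47.9 to 61.9 CPM. Within +/+, the 3 such animals had a median Sdf2l1 of 13.7 CPM against 6.16 CPM in the other 9, and a median Manf of 48.5 against 29.4 CPM. The Dp(16)1/Df(16)8 medians were 8.27 against 4.58 CPM for Sdf2l1 and 37.8 against 30.3 CPM for Manf, so for these genes the direction was the same in both genotypes. For Hsp90b1 it was not, at 352 against 293 CPM in +/+ and 301 against 307 CPM in Dp(16)1/Df(16)8. Dnajb9 and Hyou1 also turned between the genotypes, and the Canx median was lower in the run in both. Asns was not higher in the run, with a median of 65.1 CPM in the 6 animals and 69.0 CPM in the other 26. These animals were singled out after their values were seen, so the contrast is a description with no test.

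Without these 6 animals, Ts65Dn;Df(17)2 and +/+ were closer. The chaperone median was -0.04 rather than -0.18, Hspa5 was at -0.05 (adjusted p 0.78), Sdf2l1 at -0.29 (adjusted p 0.40) and Calr at -0.09 (adjusted p 0.36), and 0 genes passed. Syvn1 kept its sign at -0.17 (adjusted p 0.20). Within the run from 32333 to 32373, with 6 +/+ and 8 Ts65Dn;Df(17)2 animals, the chaperone median was again -0.04 and Syvn1 stood at -0.12 (adjusted p 0.54). With a term for each run, 0 genes passed in Ts65Dn;Df(17)2, and in Dp(16)1/Df(16)8 Xbp1 (-0.20 ± 0.05, adjusted p 0.023) and Ppp1r15b (-0.15 ± 0.04, adjusted p 0.031) did. The share of all tested genes that passed in that fit is not given here, so these calls have no background beside them.

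Genes that answer glucocorticoid hormone were also high in these animals. All 8 genes listed as such had a higher median in the 6 animals than in the others, among them the receptor's co-chaperone gene Fkbp5 (56.2 against 37.3 CPM), the lipid droplet gene Plin4 (16.4 against 3.28 CPM) and Tsc22d3 (84.9 against 49.8 CPM). No gene of that list was at 0 in any library, and its mean level ran from 4.08 to 5.45 log2 CPM in +/+, from 3.77 to 4.96 in Ts65Dn;Df(17)2 and from 3.78 to 5.03 in Dp(16)1/Df(16)8. In the 6 animals it ran from 4.83 to 5.45. It was also high, at 4.74 and 4.96, in Ts65Dn;Df(17)2 replicates 4 and 5, whose Hspa5 was at 191 and 195 CPM. Across the 32 animals, after terms for genotype and sex, the mean level of the list correlated with Hspa5 (Pearson r 0.74, Spearman rho 0.71, each with a permutation p of 1e-05, adjusted p 0.00024 over 24 relations). Pearson r was 0.66 without the 2 animals farthest from the median, 0.44 with terms for the runs of animal numbers and 0.26 without the 6 animals. For the striatal markers r was -0.42 (permutation p 0.016, adjusted p 0.097) and for immediate early genes 0.41 (permutation p 0.020, adjusted p 0.097). Markers of endothelial and mural cells, none of the 9 at 0 in any library, had an r of -0.47 (permutation p 0.0075, adjusted p 0.090), and by Spearman rho they passed (-0.56, permutation p 0.00095, adjusted p 0.011). Their r was -0.55 without the 2 farthest animals, -0.25 with run terms and -0.44 without the 6 animals. Their mean level ran from 3.93 to 4.75 log2 CPM in +/+, from 4.13 to 4.79 in Ts65Dn;Df(17)2 and from 4.31 to 4.88 in Dp(16)1/Df(16)8. The part of any of these in the chaperone levels was not tested.

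Between animals, most of the 14 ER chaperone genes varied together with Hspa5. After terms for genotype and sex, 19 of 33 genes correlated positively with Hspa5 at an adjusted p under 0.05 over 65 relations, and 0 negatively. The 19 comprised 12 of the 13 other chaperones, 1 of 4 degradation genes (Herpud1), 5 of 8 sensors and factors (Xbp1, Ern1, Atf6, Eif2s1 and Atf4) and 1 of 8 Atf4-type targets (Ppp1r15b). Pearson r was 0.88 for Manf (Spearman rho 0.86), 0.84 for Calr (rho 0.83), 0.84 for Sdf2l1 (rho 0.82), 0.84 for Dnajc3 (rho 0.76) and 0.81 for Xbp1 (rho 0.74), each with a permutation p of 1e-05, the smallest that 100000 permutations can give, and an adjusted p of 7.2e-05. By Spearman rho 17 of the 33 genes passed. Canx was the chaperone that did not pass, at r -0.18 (rho -0.15, permutation p 0.33, adjusted p 0.49). Its sign was not stable: r was 0.40 with terms for the runs of animal numbers and 0.19 without the animals numbered 32128 to 32144, and within genotypes it was -0.35 in +/+, 0.65 in Ts65Dn;Df(17)2 and -0.64 in Dp(16)1/Df(16)8.

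Over all 16041 other tested genes, r with Hspa5 had a median of -0.01, and 3.01% of them exceeded 0.5, against 15 of the 33 members. The 5 genes with the highest r in the whole table were Manf, Calr, Sdf2l1, Dnajc3 and Xbp1, and Pdia4 and Pdia3 were also among the top 10. The other 3 of those 10 were the amino acid transporter Slc38a2 (r 0.81), Ss18l2 (0.80) and the splicing-associated Acin1 (0.80). Genes are not independent replicates, and these ranks describe the 32 animals. The 46 other tested ER genes had a median r of 0.03 with Hspa5, and 5 of them exceeded 0.5. They ran from -0.72 for the disulfide isomerase family gene Txndc5 to 0.73 for the oxidase gene Ero1lb, with Wfs1 at -0.55 and Sil1, an exchange factor of Hspa5, at -0.54.

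The relation did not rest on the 6 animals alone. The median r of the other chaperones with Hspa5 was 0.75 over all animals, 0.69 without the 2 farthest animals (+/+ replicates 4 and 5), 0.60 with run terms and 0.61 in the 26 animals outside 32128 to 32144. Within genotypes it was 0.87 in +/+, 0.68 in Ts65Dn;Df(17)2 and 0.58 in Dp(16)1/Df(16)8. In the 26 animals r was 0.87 for Calr, 0.76 for Manf, 0.71 for Pdia4 and 0.68 for Hsp90b1, which all passed there. For Creld2 it was 0.02, for Herpud1 0.22, for Atf6 -0.10 and for Xbp1 0.47, and none of these passed there. For Ddit4, which did not pass over all animals (r 0.06), r was 0.52 in the 26. The number of genes past the threshold was 10 with run terms and 9 in the 26 animals. Hspa5 had an r of 0.24 with log10 library total and of -0.40 with the mitochondrial share of counts.

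**Figure D4:**
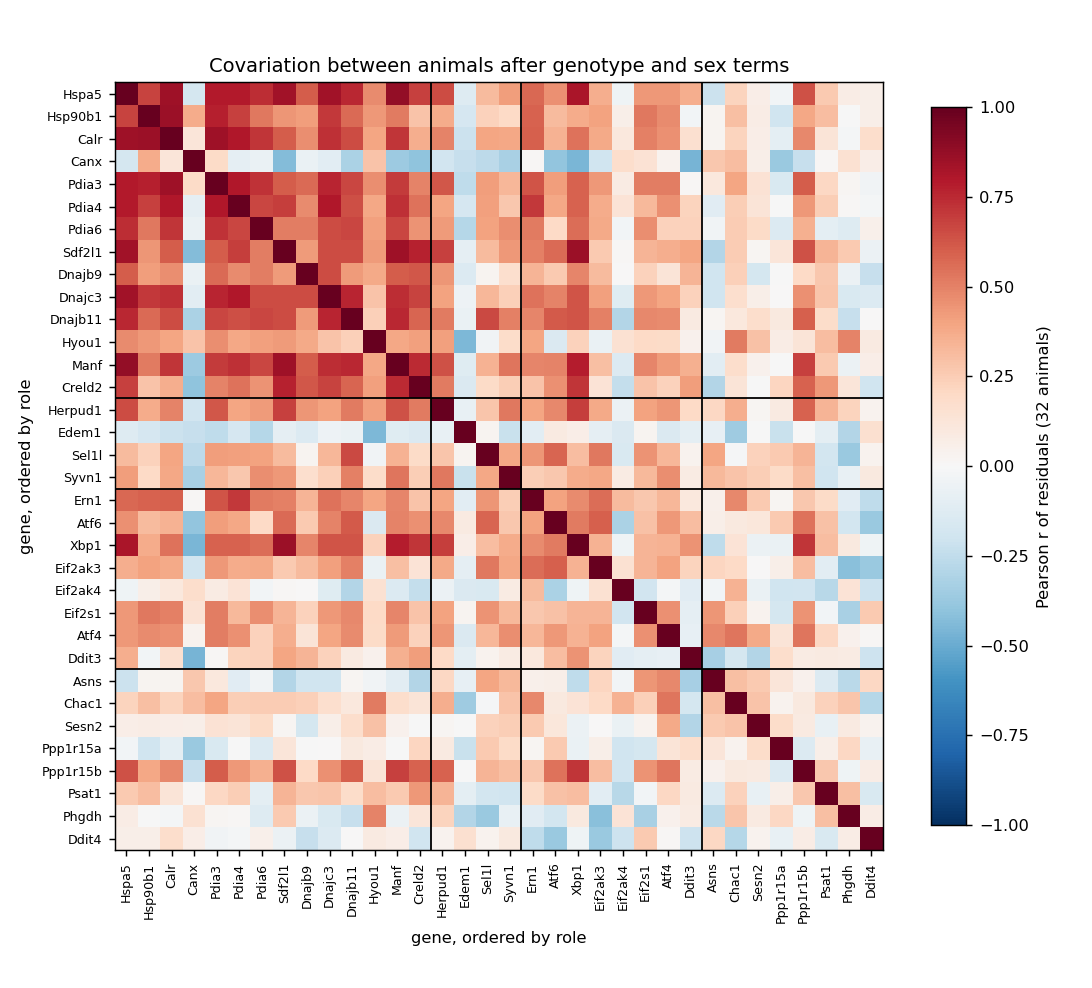
Pearson r between the residuals of each pair of the 34 genes over 32 animals, after terms for genotype and sex, ordered by role with lines between the roles. The block of ER chaperones at the top left is mostly positive (median r 0.61, 82 of 91 pairs above 0). Its negative cells are all those of Canx, whose r ran from -0.43 with Sdf2l1 to 0.37 with Hsp90b1. The block of Atf4-type targets at the bottom right is near 0 (median r 0.08).

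The Atf4-type targets showed no such shared variation among themselves. The median r between pairs of chaperones was 0.61 (91 pairs) and with run terms 0.45. Between pairs of Atf4-type targets it was 0.08 (28 pairs, -0.29 to 0.30) and between the groups 0.08 (112 pairs). With Atf4 itself, r was 0.54 for Chac1 and for Ppp1r15b, 0.48 for Asns, 0.38 for Sesn2 and 0.21 for Psat1. It was 0.13 for Ppp1r15a, 0.04 for Phgdh and 0.01 for Ddit4. Of these relations with Atf4, only that of Asns was tested. Asns correlated with 2 of 32 genes, Atf4 (Pearson r 0.48, rho 0.50, permutation p 0.0051, adjusted p 0.021) and Eif2s1 (r 0.45, rho 0.46, permutation p 0.011, adjusted p 0.038), and neither passed once striatal marker level was a term, with r then 0.43 for Atf4 and 0.40 for Eif2s1. Its r was 0.62 for Atf4 and 0.55 for Eif2s1 without the 2 farthest animals, and 0.56 and 0.69 in the 26 animals outside 32128 to 32144. With Hspa5, Asns had an r of -0.21 (permutation p 0.25, adjusted p 0.41). Over all tested genes 0.991% exceeded an r of 0.5 with Asns, and none of the members did. The genes with the highest r were L3mbtl2 (0.80), the methionyl-tRNA synthetase gene Mars1 (0.73), Rabgap1 (0.73) and the glycyl-tRNA synthetase gene Gars (0.71). Mars1 and Gars are on the list of other integrated stress genes, of which 4 of 48 exceeded 0.5, with a median r of 0.15 and a lowest of -0.34.

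**Figure D5:**
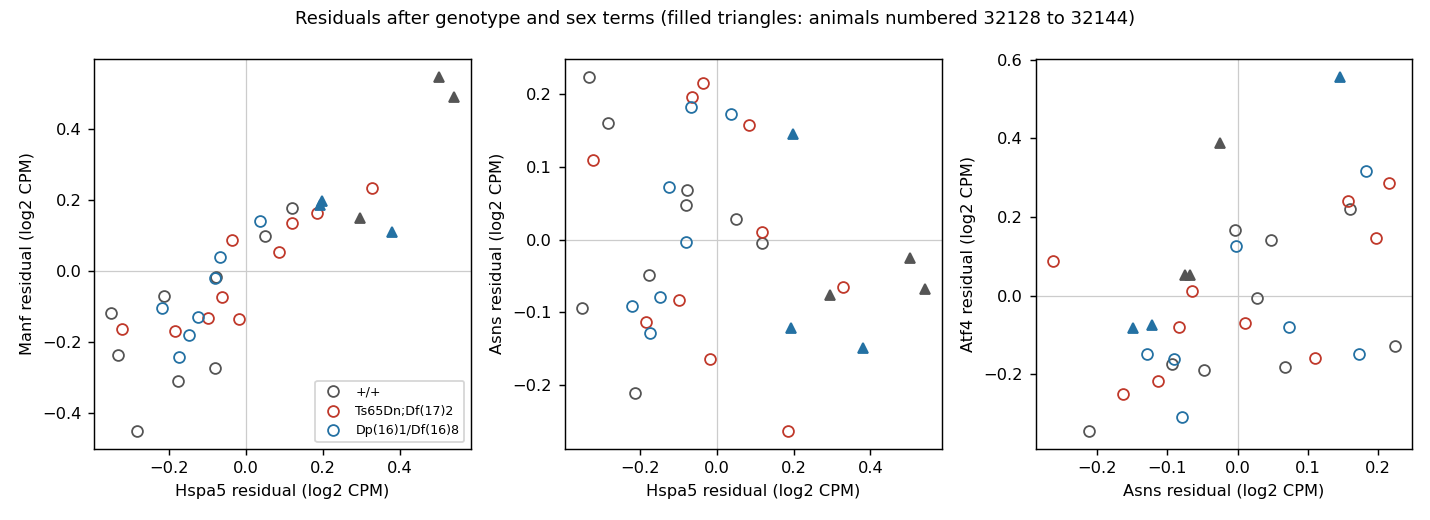
Residuals in log2 CPM after terms for genotype and sex, 1 point per animal, for Manf against Hspa5, Asns against Hspa5 and Atf4 against Asns, coloured by genotype. Manf follows Hspa5 (r 0.88) in animals inside (filled triangles) and outside 32128 to 32144, Asns does not (r -0.21), and Atf4 follows Asns loosely (r 0.48).

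The sex terms and the sex tests take Dp(16)1/Df(16)8 replicate 2 as female, as labelled. Of the 34 genes, 0 differed between males and females by edgeR and 0 by DESeq2, where 0.0748% of all tested genes did by edgeR. At an unadjusted p under 0.05 there were 3 of the 34, against 9.94% of all tested genes. The 3 were Dnajb9 (0.10 ± 0.04, higher in males), Atf4 (-0.21 ± 0.08) and Atf6 (-0.23 ± 0.09), with adjusted p of 0.43 for each. Without that library 0 of the 34 differed by sex. A change by genotype that differed by sex was found for 0 genes in Ts65Dn;Df(17)2 and 0 in Dp(16)1/Df(16)8 by edgeR and by DESeq2. By edgeR it was found for 0% of all tested genes. At an unadjusted p under 0.05 there were 2 of the 34 in each genotype, against 4.91% and 5.01% of all tested genes. Asns had the smallest such p in Ts65Dn;Df(17)2 (-0.29 ± 0.11 on the log2 scale, males minus females, adjusted p 0.94).

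Of 100 further genes listed for the same programmes, 94 were tested. Among 46 other ER genes, 1 rose and 0 fell in Ts65Dn;Df(17)2, where 1.75% of all tested genes rose and 2.22% fell. Among 48 other integrated stress genes 0 rose and 2 fell. The medians of these lists were 0.02 and -0.01, where that of all genes was 0.00. The gene that rose was Ero1l, the oxidase that reoxidises the disulfide isomerases. It ran from 40.9 to 50.5 CPM in +/+ (median 42.6) and from 42.9 to 54.6 CPM in Ts65Dn;Df(17)2 (median 50.2), with a log2 fold change of 0.17 ± 0.05 and an adjusted p of 0.041. The genes that fell were Cbs, cystathionine beta-synthase of the transsulfuration pathway (-0.44 ± 0.10, adjusted p 0.013), and Jdp2, a repressor that pairs with Atf factors (-0.60 ± 0.14, adjusted p 0.019).

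Cbs was the only one of the 94 that passed in Dp(16)1/Df(16)8, where 0.573% of all tested genes passed. It ran from 12.2 to 19.2 CPM in +/+ (median 17.7), from 9.21 to 17.5 CPM in Ts65Dn;Df(17)2 (median 12.01) and from 9.15 to 15.5 CPM in Dp(16)1/Df(16)8 (median 11.5). Cbs fell in Dp(16)1/Df(16)8 by 0.48 on the log2 scale (SE 0.10, adjusted p 0.0099), and its medians in the aneuploid genotypes were below every +/+ animal. With both aneuploid genotypes averaged, 1 gene rose and 4 fell, where 1.78% of all tested genes rose and 2.44% fell. Ero1l rose (0.15 ± 0.04), and Cbs (-0.46 ± 0.08, adjusted p 0.0013) and Jdp2 (-0.54 ± 0.12) fell. The C/EBP factor Cebpb, which binds CARE elements with Atf4, fell too (-0.57 ± 0.15, adjusted p 0.031). So did Gcn1, which activates Eif2ak4 on stalled ribosomes (-0.11 ± 0.03, adjusted p 0.025). Between the aneuploid genotypes 0 of the 94 differed by edgeR, where 0.0499% of all tested genes did. At an unadjusted p under 0.05 there were 4 of the 94, against 4.1% of all tested genes. With striatal marker level as a term, Cbs was at -0.46 in Ts65Dn;Df(17)2 (adjusted p 0.023) and Jdp2 at -0.38 (adjusted p 0.20).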

How the data were processed

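The authors deposited 1 table of raw counts, whole numbers with no normalization, for 55401 genes in 32 libraries of ribosome-depleted total RNA from mouse cerebral cortex. The submitters' processing notes name bcl2fastq 2.20, the aligner STAR 2.7.9a and, from Subread 1.6.4, featureCounts. GRCm38.p6 and GRCh38 are both listed as builds, without a role. The strand setting and the annotation release are not given in the sources used here. Library totals had a median of 7883104.5 counts.

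The 35 genes and all gene lists were chosen with earlier results of these data known. Genes kept by filterByExpr (16042) were tested with edgeR 4.0.16 in R 4.3.3, using TMM factors, quasi-likelihood F tests, terms for genotype and sex over all 32 libraries, Benjamini-Hochberg adjustment over all tested genes and a threshold of 0.05. Standard errors were taken as |log2 fold change| over the root of F. CPM are counts scaled by total and TMM factor. For log2 CPM a prior count of 2 was added. The labels do not say which animals share a litter, and p-values measure the spread between these samples. Values by genotype are given for each of the 35 genes that passed a genotype contrast and for 20 genes chosen for their roles, and of the further pathway genes those that passed are named. Other named genes were chosen after their values were seen. Correlations use residuals after genotype and sex with 100000 permutations, in both directions. Ddit3 has 2 entries, of which 1 is at 0 in all 32 libraries and was not used. Gene coordinates are from the GENCODE annotation of GRCm38 and promoters from RefSeq. Alternatives were DESeq2 1.42.0, limma 3.58.1, other filters and terms, and leaving out libraries. The fits by runs of animal numbers and the correlations with marker lists were added after the data were seen. The tests were checked on simulated data, with 10 animals against 12. Of 50 genes changed 1.15-fold (0.20 on the log2 scale) 40% passed, of 50 changed 1.3-fold (0.38) 72%, and of 50 changed 1.6-fold (0.68) 94%. A gene that did not pass is therefore not shown to be unchanged.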

Additional observations from a re-analysis of the deposited data

Results flagged for a closer look

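In Dp(16)1/Df(16)8 replicate 1, 2 levels lay far from the other 9 animals of that genotype by Dixon's criterion. Atf6 was at 159 CPM, where the others ran from 88.8 to 119 CPM. Atf4 was at 96.9 CPM, where the others ran from 51.9 to 71.8 CPM. These were 2 of 68 groups examined (34 genes in each aneuploid genotype), and chance alone sets apart about 1 in 20 groups. Without this animal, Sesn2 passed in Dp(16)1/Df(16)8 against +/+, the only such call in the 32 fits that each left out 1 library. Its Sesn2, at 9.03 CPM, was the highest of that genotype, so leaving it out lowers the Sesn2 of the group.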

How the results depend on the processing

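The count of genes of the 35 past the threshold in Ts65Dn;Df(17)2 against +/+ (1, Syvn1) was 0 with no filter on low counts, with the striatal or the immediate early level as a term, without the animals numbered 27950 and 27951, with run terms, without the animals numbered 32128 to 32144 and within 32333 to 32373. It was 2 by DESeq2 (Calr and Syvn1) and 0 to 4 without 1 library: 4 without +/+ replicate 11, 3 without +/+ replicate 6, 2 without +/+ replicate 8 or Ts65Dn;Df(17)2 replicate 10, and 0 without +/+ replicates 4, 5, 9, 10 or 12 or Ts65Dn;Df(17)2 replicates 2, 3, 4, 6, 7, 8 or 9. For both aneuploid genotypes averaged (1, Syvn1) it was 0 with no filter, with either marker term, with run terms, without 32128 to 32144 and within 32333 to 32373, 2 by DESeq2, and 0 to 3 without 1 library (0 without +/+ replicates 4, 5 or 10). In Dp(16)1/Df(16)8 it was 2 with run terms and 0 to 1 without 1 library. Between the aneuploid genotypes it was 0 in each alternative run and without each library. Over the fits without 1 library, the number of all tested genes that passed moved as well. It ran from 264 to 1486 in Ts65Dn;Df(17)2 against +/+ and from 286 to 1493 for both genotypes averaged. In Dp(16)1/Df(16)8 against +/+ it ran from 74 to 222. The shifts in the count of the 35 genes are not separated from this movement. Further pathway genes passing in Ts65Dn;Df(17)2 (3) were 9 by DESeq2 and 1 with either marker term. For both genotypes averaged (5) they were 2 with no filter or the striatal term and 1 with the immediate early term. Genes correlated with Hspa5 (19) were 10 with run terms and 9 without 32128 to 32144, and those with Asns (2) were 0 with the striatal term, at little change in r. The cause of these shifts was not tested.

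Several log2 fold changes that had not passed changed sign. In Ts65Dn;Df(17)2 within 32333 to 32373 they were Sdf2l1 0.022, Creld2 0.14, Manf 0.045, Xbp1 0.042, Ddit3 0.0051 and Asns -0.080. With run terms they were Creld2 0.11, Manf 0.016, Xbp1 0.033, Ddit3 0.048 and Asns -0.047. Without 32128 to 32144 Creld2 was at 0.044, without 27950 and 27951 Asns was at -0.023, and with the striatal term Atf4 was at 0.028. In Dp(16)1/Df(16)8 within 32333 to 32373 they were Hsp90b1 0.016, Manf 0.034, Hyou1 0.051, Herpud1 0.16, Chac1 0.082 and Phgdh 0.0080. Without 32128 to 32144 they were Hsp90b1 0.050, Calr 0.0048 and Hyou1 0.0044. With the striatal term they were Hsp90b1 0.0021, Hyou1 0.0056, Atf4 0.0067 and Asns 0.0080, with the immediate early term Manf 0.019, Atf4 0.026 and Asns 0.0059, and with run terms Hyou1 0.0035 and Asns 0.0025. The r with Hspa5 turned from -0.18 to 0.40 (run terms) and 0.19 (without 32128 to 32144) for Canx, from -0.04 to 0.20 and 0.23 for Eif2ak4, from 0.46 to -0.0061 and -0.10 for Atf6, from 0.36 to -0.021 and -0.084 for Ddit3, and from 0.36 to -0.013 and -0.11 for Eif2ak3. It turned from 0.31 to -0.027 for Sel1l with run terms and from 0.07 to -0.13 for Sesn2 with the striatal term. Of these only Atf6 had passed.

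No paired analysis was possible because the replicate numbers follow the order of the samples and pair no animals across genotypes. At 5795479 to 11189548 counts a library, Trib3 was too low to test and Chac1 and Sdf2l1 rest on few counts. The animal numbers and genotype are not independent, since 32128 to 32144 holds no Ts65Dn;Df(17)2 animal.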
